A study of Mus musculus with 24 samples.

Results

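Glycolysis is the chain of enzymes that splits glucose into pyruvate in the cytosol and yields ATP and NADH. The genes described here encode 10 enzymes of this chain in the mouse, from hexokinase 1 (Hk1) to lactate dehydrogenase B (Ldhb). They were taken by symbol from a table of 33000 genes, and all 10 were found there and passed the filter on low counts in every comparison. In order of their steps they are Hk1, Gpi1, Pfkm, Aldoa, Gapdh, Pgk1, Pgam1, Eno1, Eno2 and Ldhb. The brain depends on glucose as its main fuel, neurons and astrocytes both run the pathway, and several of its enzymes exist as isoenzymes that differ between cell types. Gapdh and Pgk1 are also widely used as reference genes in expression assays.

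Frontal cortex RNA was measured in 3 wild-type (WT) mice and 3 mice homozygous for GFAP-IL6, a transgene in which the Gfap promoter drives Il6, the gene of the pro-inflammatory cytokine interleukin 6, in astrocytes. All 6 mice were C57BL/6 and 3 months old. Each mouse gave 4 libraries by 3'Pool-seq, a method that reads the 3' ends of polyadenylated transcripts, with 2 ng or 1 ng of amplified cDNA entering the tagmentation reaction in each of the sets A and B. The labels do not give the difference between set A and set B. The replicate was the mouse, with n = 3 per genotype, and nothing in the labels says which mice were littermates. Samples are pooled before amplification and tagmentation in this protocol, so the 6 libraries of one amount and set may have shared a reaction. The p-values for amount and set then measure only the spread between mice within those reactions.

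Library totals ran from 1524165 to 12256374 counts, and from 7852743 to 37582644 after the 4 libraries of a mouse were summed, with WT mouse 3 the shallowest. Il6, the gene the transgene carries, checked the labels. It was at 0.260, 0.166 and 0 CPM (read counts relative to library size) in the WT mice and at 3.16, 1.58 and 4.23 CPM in the GFAP-IL6 mice. Gfap, an intermediate filament gene of astrocytes, was 5.44-fold higher in GFAP-IL6 mice. Of the cell type markers, 5 of 6 for microglia and 1 of 4 for endothelium were higher in GFAP-IL6 mice, and 0 of 7 for neurons changed. For astrocytes 1 of 6 was higher, in a list that includes Gfap itself. Of the 5 striatal markers, Drd2 was at 0. The 5 summed ran from 166.0 to 256.3 CPM in WT mice and from 136.6 to 185.5 CPM in GFAP-IL6 mice. The summed markers of choroid plexus ran from 105.5 to 4069 CPM in WT mice and from 78.0 to 751 CPM in GFAP-IL6 mice. WT mouse 3 stood apart, with 4038 CPM of Ttr, the transthyretin gene of choroid plexus, against 74.6 to 743 CPM in the other 5 mice.

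The 10 enzymes together took between 0.543% and 0.642% of all counts in a mouse. Levels are given as CPM after TMM scaling of the totals, and ratios between genes use this CPM without division by length. The genes were ranked by CPM per kilobase of the deposited gene length. On that scale Aldoa was highest, at a mean of 1376 CPM per kilobase, followed by Ldhb at 919. Eno2 at 249.7, Gapdh at 237 and Eno1 at 211 came next, and their ranges over the 6 mice overlapped. Below them the means were 109.7 for Gpi1, 73.1 for Pfkm, 47.7 for Pgk1, 31.4 for Hk1 and 4.81 for Pgam1, and the ranges of neighbours in this order did not overlap. Reads from 3' ends do not grow in number with gene length, so this order depends on the division by length. On CPM without that division the order turned for 2 pairs of neighbours, with Eno1 (mean 536 CPM) above Gapdh (354.5) and Hk1 (152.3) above Pgk1 (87.0). Gpi1 (212.1 to 237.2 CPM) and Pfkm (202.2 to 230.6 CPM) kept their order there, but their ranges overlapped. The deposited length of Gpi1 was 2037 nt, shorter than the 2884 nt of its transcript in GENCODE.

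The first question was whether the transgene changed the level of these enzymes. None of the 10 was called between GFAP-IL6 and WT mice in the summed libraries at an adjusted p under 0.05, where 1.8% of the 14621 genes tested were called. No enzyme reached an unadjusted p under 0.05 by edgeR's quasi-likelihood test or by DESeq2, so both counts were 0 of 10. Of the 14621 genes tested, 1279 reached it by edgeR and 1056 by DESeq2. The log2 fold changes lay between -0.12 and 0.12, with a median of -0.02 against -0.01 for all genes tested. In bulk tissue, fewer cells of a type and less RNA per cell cannot be told apart.

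**Figure D1:**
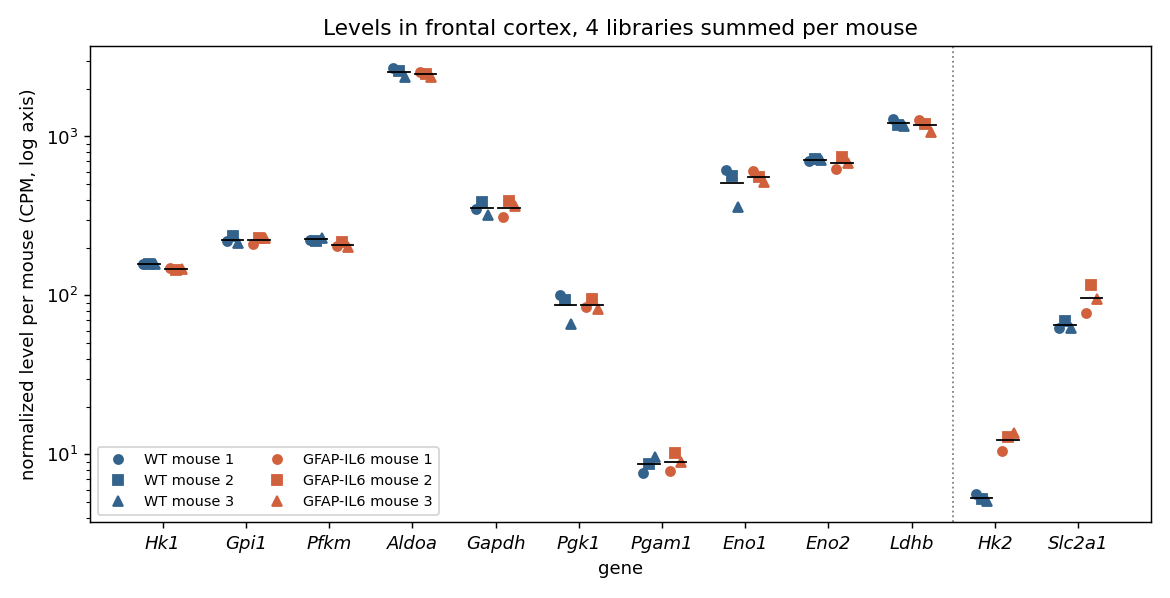
Level of each gene in each mouse, in CPM after TMM scaling on a log axis, with the 4 libraries of a mouse summed. Bars are means of 3 mice. The enzymes overlap between genotypes except Hk1 and Pfkm, WT mouse 3 is lowest for Eno1 and Pgk1, and Hk2 and Slc2a1, right of the dotted line, are higher in all 3 GFAP-IL6 mice.

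The steps that consume ATP open the pathway. Hexokinase 1, the main brain hexokinase, phosphorylates glucose, and its gene (chr10:62268855-62379908 in GRCm38, minus strand) was at 157, 158 and 157 CPM in the WT mice and at 149, 145 and 148 CPM in the GFAP-IL6 mice. The 2 groups did not overlap, but the log2 fold change was only -0.10 ± 0.08 (SE; edgeR, adjusted p = 0.827). Pfkm, the muscle-type subunit of phosphofructokinase, which commits glucose to the pathway, was at 224.5, 219.8 and 230.6 CPM in WT and at 203.9, 215.8 and 202.2 CPM in GFAP-IL6 mice. It too was lower in every GFAP-IL6 mouse, with a log2 fold change of -0.12 ± 0.08 (SE; adjusted p = 0.757). These were the only enzymes whose groups did not overlap, while the groups did not overlap for 14.4% of all genes tested and 5.93% had all GFAP-IL6 mice below all WT mice. An exact permutation test of 3 mice against 3 cannot give a two-sided p below 0.1, and both genes had that value. Gpi1, which converts glucose 6-phosphate into fructose 6-phosphate, was at 219.7, 237.2 and 214.2 CPM in WT and at 212.1, 228.4 and 229.3 CPM in GFAP-IL6 mice, so the groups overlapped.

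Aldolase A splits the phosphorylated hexose, and its gene was the most abundant enzyme gene of the set. Aldoa was at 2714, 2585 and 2358 CPM in WT mice and at 2556, 2474 and 2370 CPM in GFAP-IL6 mice, for a log2 fold change of -0.05 (95% confidence interval -0.23 to 0.13). Gapdh, which oxidises glyceraldehyde 3-phosphate and makes NADH, was at 350.5, 384.9 and 321.8 CPM in WT and at 313.1, 391.3 and 365.4 CPM in GFAP-IL6 mice. The genotypes overlapped for both genes, and for Gapdh the interval of the log2 fold change ran from -0.19 to 0.23.

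Phosphoglycerate kinase 1 makes the first ATP of the pathway, and phosphoglycerate mutase 1 moves the phosphate of its product. Pgk1 was at 100.6, 93.6 and 65.8 CPM in the WT mice and at 84.7, 95.1 and 82.2 CPM in the GFAP-IL6 mice. Pgam1 was the weakest of the 10, at 7.60, 8.76 and 9.58 CPM in WT and at 7.81, 10.2 and 8.98 CPM in GFAP-IL6 mice, and held between 12 and 99 counts per library. At this depth its interval was wide, from -0.26 to 0.43 on the log2 scale.

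The enolases make phosphoenolpyruvate, Eno1 in most cells and Eno2 mainly in neurons. Eno1 was at 617, 562 and 360 CPM in WT and at 603, 557 and 519 CPM in GFAP-IL6 mice. WT mouse 3 was the lowest of the 6 for Eno1 in all 4 amounts and sets, and for Pgk1 in all but 1 ng of set A, where it had 56.3 CPM in a range of 46.9 to 58.4. That mouse also had the highest choroid plexus markers and the lowest total, and the part of either in its Eno1 and Pgk1 was not tested. Without WT mouse 3 the log2 fold change of Eno1 turned from 0.12 to -0.07 and that of Pgk1 moved from -0.00 to -0.15, with neither called (edgeR, adjusted p = 0.875 and 0.696). Eno2 was at 702, 720 and 715 CPM in WT and at 621, 744 and 685 CPM in GFAP-IL6 mice. Eno2 overlapped between genotypes, and the ratio of Eno2 to Eno1 was 1.47 ± 0.453 in WT and 1.23 ± 0.172 in GFAP-IL6 mice (SD, n = 3 each).

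Lactate dehydrogenase B, the form of the enzyme most abundant in heart and neurons, interconverts pyruvate and lactate. Ldhb was at 1292, 1187 and 1167 CPM in WT mice and at 1271, 1200 and 1069 CPM in GFAP-IL6 mice, with overlap. Its ratio to Ldha, the other main subunit, was 2.79 ± 0.0815 in WT and 2.70 ± 0.426 in GFAP-IL6 mice (SD, n = 3 each).

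The comparison was repeated within each amount and set, where 0 of 10 enzymes were called each time, and 0 of 10 reached an unadjusted p under 0.05 by edgeR or by DESeq2. Of all genes tested, 1.03% were called with 2 ng of set A, 1.1% with 1 ng of set A, 1.08% with 2 ng of set B and 1.08% with 1 ng of set B. In the same order 12190, 12407, 12233 and 12974 genes were tested. Of these, 925, 911, 828 and 905 had an unadjusted p under 0.05 by edgeR, and 568, 616, 514 and 672 by DESeq2. Pfkm had log2 fold changes of 0.01, -0.18, -0.05 and -0.19 in these 4 comparisons, and Hk1 had -0.09, -0.01, -0.14 and -0.12. Pgam1 ran from -0.21 to 0.34. The 4 comparisons use the same 6 mice and are not independent.

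**Figure D2:**
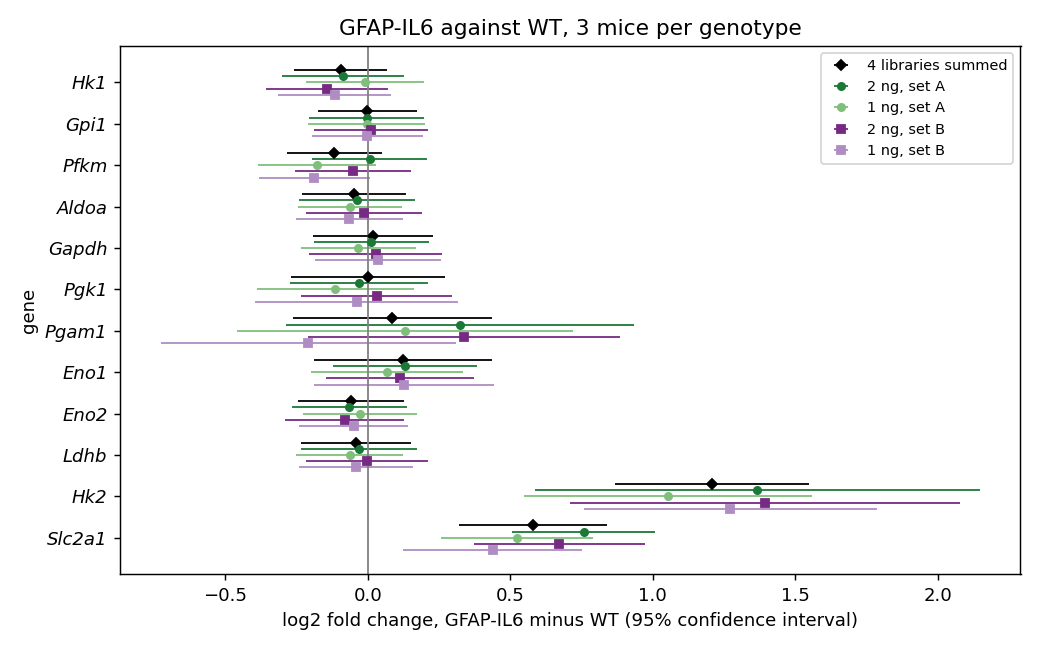
Log2 fold change of GFAP-IL6 against WT (horizontal axis) for each gene, with 95% confidence intervals, in the summed libraries and in each amount and set, 3 mice per genotype. The intervals of all 10 enzymes include 0 in each comparison, and those of Hk2 and Slc2a1 lie above 0, although Hk2 was not called with 2 ng of set A nor Slc2a1 with 1 ng of set B.

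Other genes of the pathway were taken from a list of 70, of which 60 were tested. In the summed libraries 2 of the 60 (3.33%) were higher in GFAP-IL6 mice and 0 were lower. Of all 14621 genes tested 1.8% were called, 255 higher and 8 lower. The median log2 fold change of the list was -0.01. One of the 2 genes called in the list was Hk2, the inducible hexokinase. It was at 5.67, 5.26 and 5.12 CPM in WT and at 10.6, 12.8 and 13.5 CPM in GFAP-IL6 mice. Its log2 fold change was 1.21 ± 0.16 (SE; edgeR, adjusted p = 0.000471), and the ratio of Hk1 to Hk2 was 29.5 ± 1.58 in WT and 12.1 ± 1.77 in GFAP-IL6 mice (SD, n = 3 each). Within the amounts and sets, Hk2 was called in all but 2 ng of set A (log2 fold change 1.37, edgeR, adjusted p = 0.0982). The other gene was Slc2a1, the glucose transporter GLUT1 of endothelium and glia, at 62.8, 69.2 and 62.5 CPM in WT and at 77.8, 117 and 95.02 CPM in GFAP-IL6 mice.

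Slc2a1 was 1.495-fold higher (log2 fold change 0.58 ± 0.12, SE; edgeR, adjusted p = 0.0198). This call was lost without WT mouse 1 (adjusted p = 0.07502), WT mouse 2 (0.0510), GFAP-IL6 mouse 2 (0.126) or GFAP-IL6 mouse 3 (0.0629), while the log2 fold change stayed between 0.42 and 0.70. Within the amounts and sets Slc2a1 was called in all but 1 ng of set B (log2 fold change 0.44, edgeR, adjusted p = 0.341), where GFAP-IL6 mouse 1, at 61.1 CPM, lay below the 63.8 to 67.3 CPM of the WT mice. Summed endothelial markers ran from 24.2 to 29.5 CPM in WT and from 36.9 to 48.2 CPM in GFAP-IL6 mice, summed microglial markers from 206.5 to 226.9 and from 306.3 to 392.8 CPM, and their part in Hk2 and Slc2a1 was not tested. The genes Pfkl, Pfkp, Tpi1, Pkm and Ldha had log2 fold changes between -0.06 and 0.01 and were not called. Aldoc, the aldolase of astrocytes, was at 1754, 1599 and 1668 CPM in WT and at 2001, 1835 and 1827 CPM in GFAP-IL6 mice, without overlap but not called (log2 fold change 0.17, adjusted p = 0.585). Hk3 and Pygm, named after their values were seen, did not overlap between genotypes and were not called. The groups did not overlap for 14.4% of all genes tested. Hk3, a hexokinase of blood cells, was at 0.624, 0.776 and 0.656 CPM in WT and at 1.58, 1.25 and 1.82 CPM in GFAP-IL6 mice (log2 fold change 1.17, edgeR, adjusted p = 0.252). It held only 5 to 70 summed counts per mouse. Pygm, a glycogen phosphorylase, was at 21.3, 20.3 and 25.7 CPM in WT and at 13.8, 17.4 and 16.1 CPM in GFAP-IL6 mice (log2 fold change -0.48, edgeR, adjusted p = 0.102). The neuronal glucose transporter Slc2a3 and the lactate transporter Slc16a1 had log2 fold changes of 0.03 and -0.01.

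The promoters of the 2 genes that rose are shown because many genes of the pathway carry ACGTG, the core of the element that hypoxia-inducible factors bind. The sequences are from RefSeq (GRCm38.p6), read 5′ to 3′ on the strand that holds the motif, with the motif in capitals. The Slc2a1 window is chr4:119108698-119108724, on the strand of the gene, with the motif at position -36 from the start. The Hk2 window is chr6:82774491-82774517, on the other strand, at position -52. A further match in Hk2, at position -226 on that strand, is not shown.
Slc2a1: tcccgccccggACGTGctccccaggcc
Hk2: cccggacagtgACGTGgatgtgctcat
In windows of 250 bases before to 50 after the start, searched on both strands, ACGTG was in 19.6% of 32851 promoters and in at least 1 promoter of 21.8% of 27025 genes. It was in a promoter of 6 of the 10 enzymes, whose levels were not called between genotypes: Hk1, Pfkm, Aldoa, Gapdh, Pgk1 and Pgam1. Counted by promoter, it was in 8 of the 18 promoters of the 10 enzymes (44.4%). The Aldoa matches, at positions -126 and -202 of overlapping promoters, are the same site (chr7:126799365-126799391), counted once for each promoter. A match is a description of letters and not of a bound site. The motif TTCNNNGAA, the core bound by STAT factors that act downstream of interleukin 6, was in a promoter of 9.55% of genes, of 1 of the 10 enzymes (Pfkm), and of 0 of Hk2 and Slc2a1.

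The second question was whether the amount of cDNA changed the measured levels. With the sets summed and each mouse compared with itself, 9 of 10 enzymes were called between 2 ng and 1 ng, 6 higher and 3 lower with 2 ng, where 33.3% of the 13389 genes tested were called. Of all genes, 2092 (15.6%) were called higher and 2370 (17.7%) lower, and with library totals in place of TMM scaling 3042 higher and 1753 lower. The number of enzymes called was 7 by DESeq2 and 4 without the mouse as a block, beside 3078 and 1714 of the 13389 genes tested. Pgk1, Gapdh and Eno1 differed by far more than the other 7.

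Pgk1 (chrX:106187100-106203699, plus strand) had the largest difference. In set A it lay between 104.2 and 156.4 CPM with 2 ng (median 137.7) and between 46.9 and 58.4 CPM with 1 ng (median 55.0). In set B it lay between 95.3 and 152.3 CPM with 2 ng (median 143.5) and between 34.6 and 67.3 CPM with 1 ng (median 56.8). The amounts did not overlap in either set. With the sets summed Pgk1 was 2.48-fold higher with 2 ng, a log2 difference of 1.31 ± 0.04 (SE; edgeR, adjusted p = 6.73e-161).

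Gapdh (chr6:125161715-125166467, minus strand) lay between 416.2 and 480.5 CPM with 2 ng (median 458.5) and between 238.0 and 283.3 CPM with 1 ng (median 255.4) in set A. In set B the values were 390.6 to 531.6 CPM (median 467.0) and 257.2 to 340.0 CPM (median 305.1). The amounts again did not overlap, and with the sets summed Gapdh was 1.596-fold higher with 2 ng (log2 difference 0.67 ± 0.02, SE; adjusted p = 3.80e-157). Eno1 (chr4:150236721-150248879, plus strand) was 1.61-fold higher (log2 difference 0.68 ± 0.02, SE; adjusted p = 4.18e-191). With 2 ng it lay between 441.0 and 711.5 CPM in set A and between 540.5 and 874.0 CPM in set B, and with 1 ng between 289.3 and 488.5 CPM in set A and between 269.8 and 506.8 CPM in set B. Eno1 therefore overlapped between amounts in set A, where WT mouse 3 had the low 2 ng value, and not in set B.

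Within mice the direction was the same throughout for these 3 genes. The log2 difference of 2 ng against 1 ng for Pgk1 ran from 0.877 to 1.4995 in set A and from 1.17 to 1.44 in set B, and was positive in 6 of 6 mice each time. The values for Gapdh were 0.76 to 0.88 in set A and 0.51 to 0.67 in set B. For Eno1 they were 0.52 to 0.70 and 0.724 to 0.9997. Each of these differences had the smallest two-sided p that an exact permutation test over the 64 sign flips of 6 mice can give, 0.03125. One sign in 6 of 6 mice was found for 27.2% of all genes tested in set A and for 19.9% in set B, and among the enzymes for 7 and 5 of 10.

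**Figure D3:**
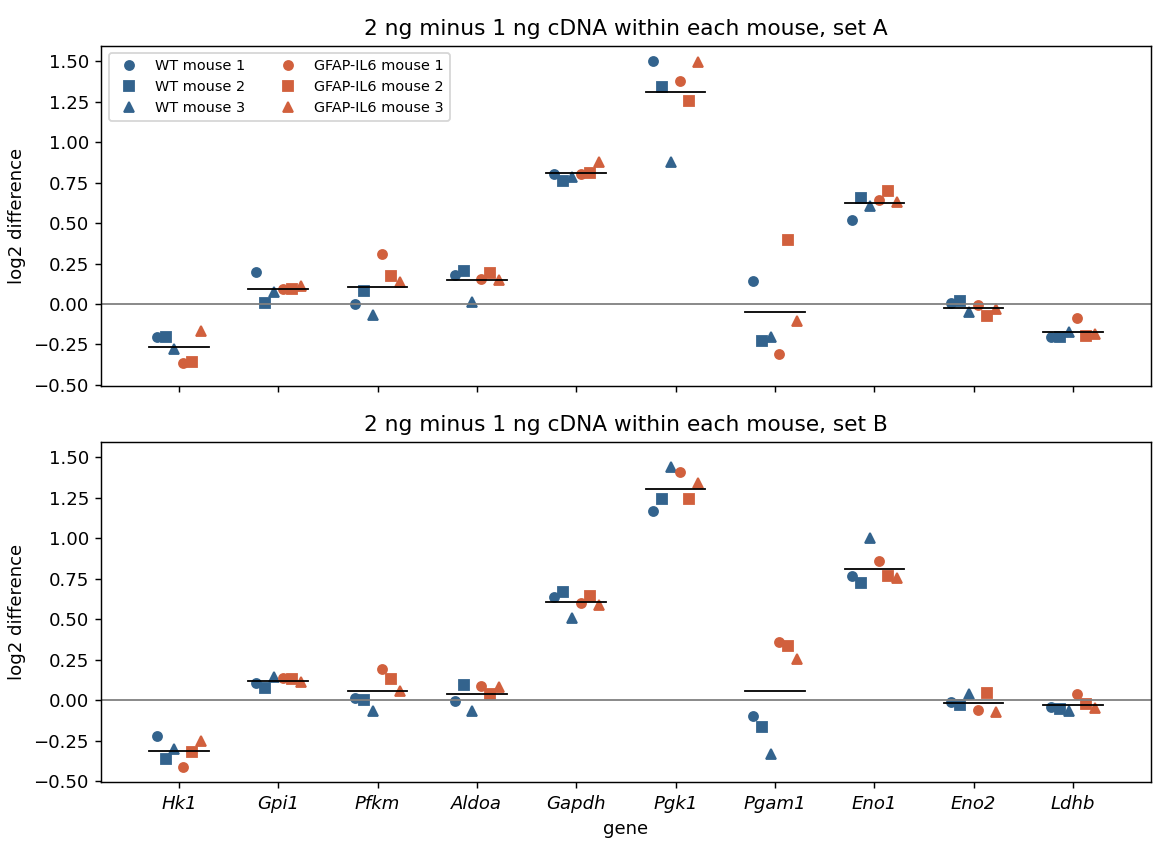
Log2 difference of 2 ng minus 1 ng of cDNA within each mouse (vertical axis) for the 10 enzymes, in set A (top) and set B (bottom). Bars are means of 6 mice. Pgk1, Gapdh and Eno1 are above 0.5 in every mouse, and Hk1 is below 0 in every mouse. In set B Pgam1 is below 0 in the WT mice and above 0 in the GFAP-IL6 mice. This split of Pgam1 was picked out after the values were seen and was not tested.

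Hk1 moved the other way. It lay between 119.5 and 145.4 CPM with 2 ng and between 151.1 and 175.3 CPM with 1 ng in set A, and between 119.0 and 147.7 and between 158.7 and 182.5 CPM in set B. With the sets summed it was 1.24-fold lower with 2 ng (log2 difference -0.30 ± 0.03, SE), and all 6 mice had less of it with 2 ng in both sets. Gpi1 differed little, by 0.09 on the log2 scale, yet all 6 mice had more of it with 2 ng in both sets (exact permutation test, p = 0.03125 in either set). In set A the difference in WT mouse 2 was only 0.0042, and Gpi1 was not called in that set alone (edgeR, adjusted p = 0.0719).

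The remaining enzymes differed by less than 0.15 on the log2 scale with the sets summed. Aldoa was 0.08 and Pfkm 0.06 higher, Ldhb 0.13 and Eno2 0.05 lower with 2 ng, and Pgam1 was not called (0.03, interval -0.20 to 0.26). The summed log2 difference of Eno2 (-0.047) lay outside its values in set A (-0.042) and set B (-0.015). Eno2 was not called in either set alone (edgeR, adjusted p = 0.1605 and 0.680), and 4 of 6 mice had less of it with 2 ng in each. The calls of Pfkm and Eno2 were lost with DESeq2 (adjusted p = 0.191 and 0.0762). The call of Pfkm was also lost without any 1 of the 3 GFAP-IL6 mice (adjusted p between 0.155 and 0.247), and that of Eno2 without WT mouse 2, GFAP-IL6 mouse 1 or GFAP-IL6 mouse 3 (between 0.0512 and 0.140). In set A alone 7 of 10 enzymes were called, beside 31.9% of all genes (1953 higher and 1942 lower, or 2565 and 1516 with library totals). In set B alone 6 of 10 were called, beside 21.4% of all genes.

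Of the other genes of the pathway, 29 of 57 were called between amounts with the sets summed, beside 33.3% of all genes tested. Of these 29, 18 were higher and 11 lower with 2 ng. The 3 with the smallest p were Ldha, Phgdh and Tpi1, all higher with 2 ng. Ldha, the lactate dehydrogenase subunit of glycolytic tissues, had a log2 difference of 0.30 ± 0.02 (SE). Phgdh, which opens serine synthesis from a glycolytic intermediate and is strong in astrocytes, had 0.63 ± 0.04. Tpi1, the triose phosphate isomerase gene, had 0.24 ± 0.02. All 6 mice had more of each with 2 ng in both sets (exact permutation test, p = 0.03125 for each gene and set). Hk2, by contrast, was lower with 2 ng (log2 difference -0.81 ± 0.12, SE).

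Ratios between enzymes moved with the amount accordingly. Gapdh over Aldoa had a mean of 0.166 ± 0.0147 with 2 ng and 0.105 ± 0.00888 with 1 ng in set A, and of 0.185 ± 0.0219 and 0.124 ± 0.0144 in set B (SD, n = 6 mice each). Eno2 over Eno1 was 1.08 ± 0.224 with 2 ng and 1.71 ± 0.377 with 1 ng in set A, and 0.977 ± 0.237 and 1.75 ± 0.515 in set B. Ldhb over Ldha was 2.14 ± 0.252 with 2 ng and 3.06 ± 0.248 with 1 ng in set A, and 2.55 ± 0.347 and 3.15 ± 0.306 in set B. The amounts did not overlap for Gapdh over Aldoa in either set, nor for Ldhb over Ldha in set A.

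Over the 24 libraries, Pgk1 had a coefficient of variation of 46.3%, Eno1 of 30.7% and Gapdh of 26.6%. The amount took 89.7%, 63.8% and 85.6% of the sum of squares of their log2 levels, and genotype took 0.00254%, 2.81% and 0.00334%. The highest library exceeded the lowest 4.53-fold for Pgk1, 3.24-fold for Eno1 and 2.23-fold for Gapdh. Gpi1, Eno2, Aldoa and Pfkm were the steadiest, with coefficients of 6.04%, 7.02%, 7.48% and 7.49%. Of the 1364 genes within 2-fold of the level of Gpi1, 1.91% varied less than it did on the log2 scale. For Eno2, 62.0% of the sum of squares lay between mice of a genotype.

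**Figure D4:**
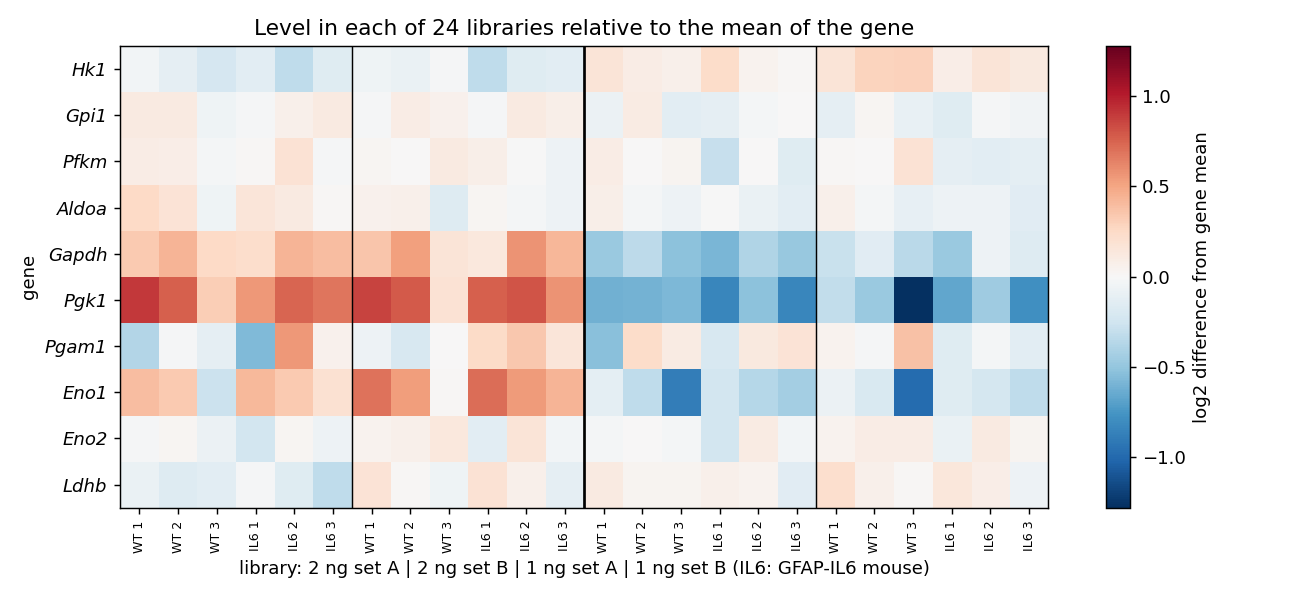
Log2 level of each enzyme (vertical) in each of the 24 libraries (horizontal) relative to the mean of that gene, with 2 ng libraries left of the thick line and 1 ng libraries right of it. Gapdh, Pgk1 and Eno1 change colour at the thick line, and the remaining genes stay near 0 apart from Pgam1 and Hk1.

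Gapdh, Pgk1 and Eno1 were also the enzymes whose 3' ends share most sequence with other genes. Every stretch of 70 nt, the length of a read, in the last 1000 nt of the transcript was looked up in the transcripts of other genes in GENCODE. An exact match was found for 93.2% of the stretches of Gapdh, in 127 genes, for 61.1% of Eno1, in 4 genes, and for 55.1% of Pgk1, in 4 genes. The share was 23.1% for Ldhb, 4.9% for Pgam1, 4.8% for Aldoa and 0% for Hk1, Gpi1, Pfkm and Eno2. The methods state that only uniquely aligned reads were counted. Where in the transcript the counted reads of these genes lie was not measured, so the levels of Gapdh, Eno1 and Pgk1 are uncertain. Within the last 200 nt, the shares were 68.5% for Gapdh, 98.5% for Eno1 and 0% for Pgk1. From 200 to 500 nt before the end they were 100%, 50.3% and 27.3%, and from 500 to 1000 nt 100%, 51.3% and 100%.

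The same description was made for all genes tested between amounts, without the 10 enzymes. Among 135 genes with more than 50% of stretches shared, the quartiles of the log2 difference were -0.34 and 0.38 around a median of -0.03, and 34.1% were called higher and 39.3% lower with 2 ng. Among 11633 genes with no shared stretch the quartiles were -0.12 and 0.13, and 15.3% were called higher and 17.3% lower. The 2 classes were not matched for expression level or tested against each other. The class with more than 50% shared had quartiles of -0.22 and 0.06 between sets with 2 ng, against -0.17 and 0.21 with no shared stretch, and of -0.08 and 0.10 against -0.10 and 0.12 between genotypes. Pathway genes with little or no shared sequence also differed between amounts, Hk2 with 0% shared and a log2 difference of -0.81, Ldha with 5.3% and 0.30, and Tpi1 with 4.5% and 0.24. Phgdh, also higher with 2 ng, had 47.4% of stretches shared, in 12 genes. The part of shared sequence in the differences of Gapdh, Eno1 and Pgk1 was not tested.

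**Figure D5:**
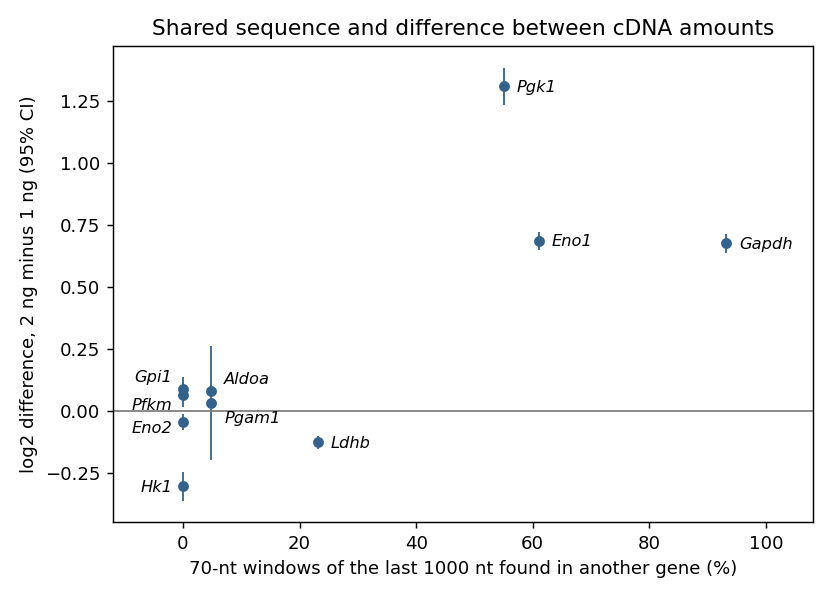
Log2 difference of 2 ng against 1 ng with the sets summed (vertical axis, 95% confidence intervals over 6 mice) against the share of 70-nt stretches in the last 1000 nt of the transcript that occur in another gene (horizontal axis). Pgk1, Eno1 and Gapdh, at 55.1%, 61.1% and 93.2%, lie above 0.6, and the other 7 enzymes, at 23.1% or less, lie between -0.30 and 0.09.

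The third question was whether set A and set B gave the same levels. With 2 ng, 4 of 10 enzymes were called between sets, beside 34.3% of the 12089 genes tested. Aldoa was higher in set A by 0.13 on the log2 scale, and Eno1, Ldhb and Eno2 were lower in set A, with log2 differences of -0.25, -0.21 and -0.08. Each had one sign in 6 of 6 mice (exact permutation test, p = 0.03125 for each gene), as did 27.8% of all genes tested. With 1 ng, 2 of 10 enzymes were called, beside 5.67% of 12467 genes. These were Gapdh and Eno2, both lower in set A, with log2 differences of -0.23 and -0.08, in 6 of 6 mice, where 9.36% of all genes had one sign in 6 of 6 mice.

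With the amounts summed, 5 of 10 enzymes were called between sets, beside 23.3% of all genes. Aldoa was higher in set A by 0.07, and Eno1, Ldhb, Eno2 and Gapdh were lower, with log2 differences of -0.12, -0.12, -0.09 and -0.07. Without the mouse as a block, the counts of enzymes called were 1 with 2 ng, 0 with 1 ng and 0 with the amounts summed. The counts over all genes were then 2567 of 12089, 94 of 12467 and 1015 of 13581. Summing weights each library by its depth, and the summed log2 difference of Pgk1 (0.07) lay outside its values with 2 ng (0.01) and 1 ng (-0.05). Eno2 was called lower in set A with both amounts. With 1 ng Eno1 and Ldhb had the same direction as with 2 ng but were not called, with log2 differences of -0.08 and -0.05 (edgeR, adjusted p = 0.0746 and 0.0634). The enzymes called with 1 ng numbered 4 with at least 10 counts in every library, and 4 without WT mouse 3. Over all genes 746 of 10118 and 654 of 12737 were called in these runs.

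Of the other genes of the pathway, 19 of 58 were called between sets with the amounts summed, beside 23.3% of all genes tested. Of these 19, 8 were higher and 11 lower in set A. Pkm, the pyruvate kinase gene, Aldoc and Dld, a subunit shared by the mitochondrial dehydrogenase complexes, had the smallest p. Pkm and Aldoc were lower in set A, with log2 differences of -0.16 ± 0.02 and -0.12 ± 0.01 (SE). Dld was higher, by 0.38 ± 0.04, and lay between 129.3 and 160.1 CPM with 2 ng in set A and between 79.9 and 101.4 CPM with 2 ng in set B. With 1 ng the sets overlapped for Dld, at 96.5 to 137.8 and 89.9 to 107.3 CPM.

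Whether one effect depended on another was tested by interaction terms. For genotype by amount, 0 of 10 enzymes and 0 of 13961 genes were called (edgeR), with 538 genes at an unadjusted p under 0.05, and DESeq2 called 0. Pfkm was the 1 enzyme at an unadjusted p under 0.05 there (difference of the log2 effects 0.14, edgeR, unadjusted p = 0.00783, adjusted p = 0.9998). For genotype by set, 0 of 10 enzymes and 0 of 14167 genes were called, with 597 genes at an unadjusted p under 0.05, and DESeq2 called 0. The effect of the amount differed between the sets for 4 of 10 enzymes, beside 11.4% of 12758 genes. The log2 difference of 2 ng against 1 ng was larger in set A for Gapdh (by 0.20 ± 0.04, SE) and Aldoa (by 0.11 ± 0.02). The call of Gapdh was lost after thinning to the smallest total (0.15, edgeR, adjusted p = 0.125). For Eno1 and Ldhb the difference of set A minus set B was -0.17 ± 0.04 and -0.15 ± 0.03. For Pgk1 it was 0.07, with an interval of -0.10 to 0.24, and was not called.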

How the data were processed

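The 24 libraries were grouped by their labels. As the methods state, the authors trimmed polyA stretches, aligned reads to mm10 with STAR (version 2.4 in the submitters' processing notes, which list only a human build) and counted uniquely aligned reads per GENCODE gene with featureCounts. They deposited raw counts, without normalization. Shown levels are CPM after TMM scaling. Counts were tested with edgeR 4.0.16 in R 4.3.3 (filterByExpr, then the quasi-likelihood test), fitted on all genes, and called at a Benjamini-Hochberg adjusted p under 0.05. Genotype was tested over 3 mice each. Amount and set were tested with the mouse as a block, since libraries of one mouse share its RNA. Exact permutation tests used log2(CPM + 1), two-sided.

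The methods name DESeq2, used here as an alternative (1.42.0), besides other scalings, filters, thinning to the smallest total and leaving out each mouse. Copies were searched with minimap2 2.31-r1302 and by exact 70-nt stretches in GENCODE transcripts (GRCm38). Numbers rest on reads without molecular identifiers, so depth limits cover counting error only.

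The enzymes and the gene lists were chosen with earlier results of these data known. Genes named were the 10 enzymes, 7 isoenzymes, 3 transporters, pathway genes called between genotypes, the 3 pathway genes with the smallest p between amounts and between sets, Il6 and Gfap. Ttr, Drd2 and markers describe the samples.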

Additional observations from a re-analysis of the deposited data

Results flagged for a closer look

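The effect of the cDNA amount differed between set A and set B for 4 enzymes, by the interaction of amount and set in edgeR. The log2 difference of 2 ng against 1 ng in set A minus that in set B was 0.20 for Gapdh (adjusted p = 0.000149), 0.11 for Aldoa (8.01e-05), -0.17 for Eno1 (0.000218) and -0.15 for Ldhb (9.80e-06). The call of Gapdh was lost after thinning to the smallest total (0.15, edgeR, adjusted p = 0.125). Of 12758 genes, 1450 were called in this test. Gapdh and Eno1 kept the direction of the amount in both sets, Aldoa was 0.13 higher with 2 ng in set A and 0.04 in set B, and Ldhb was -0.20 in set A and -0.03 in set B.

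Pgam1 in set B went opposite ways in the genotypes. The log2 difference of 2 ng against 1 ng was -0.10, -0.17 and -0.33 in the WT mice and 0.36, 0.34 and 0.25 in the GFAP-IL6 mice, so the means differed by 0.52. The difference in set B alone was not tested. This split of the genotypes was picked out from all the enzymes and paired comparisons after their values were seen. The share of all genes with such a split was not counted, so how often it arises by chance is not known. Over both sets the interaction of genotype and amount for Pgam1 was 0.36 (interval -0.11 to 0.83, edgeR, adjusted p = 0.9998), and in set A the values of both genotypes lay on both sides of 0. Pgam1 held between 12 and 99 counts per library.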

How the results depend on the processing

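No enzyme was called between genotypes under any alternative run, in the summed libraries or in a single amount and set. Without the mouse as a replicate block, the enzymes called numbered 4 between amounts with sets summed, and 1 with 2 ng, 0 with 1 ng and 0 with amounts summed between sets. With at least 10 counts in every library, 4 were called between sets at 1 ng. On CPM of library totals, 1 enzyme in place of 2 had the smallest exact p between genotypes. Leaving out 1 mouse, between 1 and 2 other pathway genes were called between genotypes, and between 2 and 4 enzymes between sets at 1 ng (4 without WT mouse 3). No called enzyme changed direction under any alternative. Same-numbered WT and GFAP-IL6 mice do not pair: their correlations lay between -0.07 and 0.02, and a block of these numbers called 215 genes in the summed libraries and 0 enzymes.

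Counts over all genes moved by more than 1.5 times as follows. Between genotypes 462 were called without a filter and 146 without GFAP-IL6 mouse 3 (263 otherwise). Within sets they ran from 54 to 228. Between amounts, thinning gave 2809 with sets summed and 1379 in set B, DESeq2 1551 in set B, and no block 1714, 2213 and 770 with sets summed, in set A and in set B. Between sets, no block gave 1015, 2567 and 94 with amounts summed, 2 ng and 1 ng, and thinning 409 at 1 ng. Thinning gave 781 for amount by set, where the call of Gapdh was lost (adjusted p = 0.125). For genotype by amount, 1 gene was called without a filter and 1 without WT mouse 1. Leaving out mice for the interactions was added after seeing the data. Pgam1 held 12 to 99 counts per library and Hk2 4 to 192, which limits the precision of both.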
